A study of Homo sapiens with 16 samples.

Results

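A498 is an established human line of clear cell renal carcinoma, a kidney cancer in which the VHL gene is lost. The comparison described here is between A498 cells labelled SETD2 deficient, with a null genotype, and A498 cells labelled add-back, with a wild-type SETD2 genotype. It was defined by the labels alone and holds 4 of the 16 libraries of the series, 2 per group, all sequenced in batch 3. Polyadenylated RNA was counted per gene, and neither group received a drug or vehicle. Both groups were grown in the same medium. The labels do not say whether either population was a single clone, which construct restored SETD2, or whether the 2 libraries of a group came from separate cultures. P-values therefore measure the spread between these libraries, which may be technical. The other 12 libraries are from 786-O, a second line of the same cancer with intact (WT) or knocked-out (KO) SETD2. Of these, 6 were kept in the vehicle DMSO and 6 were treated with A1331852, an inhibitor of BCL-XL, at 100 nM for 72 h. The comparison between lines at the end contrasts the DMSO libraries and uses all 16 for the fit.

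SETD2 encodes the methyltransferase that places the trimethyl mark on lysine 36 of histone H3 along the bodies of transcribed genes. That mark is read by DNA methyltransferases, splicing regulators and repair proteins, and it limits initiation from cryptic start sites within genes. SETD2 lies on the short arm of chromosome 3, as do VHL, PBRM1 and BAP1, and it is often mutated in clear cell renal carcinoma.

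SETD2 transcripts did not tell the groups apart. The level was 40.9 and 59.1 CPM (counts scaled to a common library size, after TMM normalisation) in the deficient libraries and 45.6 and 54.1 CPM in the add-back libraries. The ranges overlapped, and the log2 fold change of deficient against add-back was 0.00 ± 0.17 (SE, adjusted p = 0.991). A null allele may still be transcribed, and a construct that lacks the counted sequence would not be seen, so each direction given here rests on the labels. The libraries held 16358468 to 17811303 counts. The 2 deficient libraries differed more from each other than the add-back libraries did, with a mean chi-square per gene of 18 against 6.1, where sampling noise alone gives 1. Mitochondrial transcripts took 4.24% and 5.91% of counts in deficient replicates 1 and 2, and 3.79% and 4.25% in the add-back libraries. Deficient replicate 1 also stood apart by transcripts of secreted liver proteins. A set of 12 such genes, chosen after their values were seen, summed to 983 counts there, against 32 in deficient replicate 2 and 28 and 18 in the add-back libraries. ALB, which encodes serum albumin, gave 187 counts in deficient replicate 1 and 2 to 3 in each of the others.

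A large share of the transcriptome differed. Of 15424 genes tested, 4657 (30.2%) passed an adjusted p of 0.05 in edgeR's quasi-likelihood test. Of these, 2324 (15.1%) were higher and 2333 (15.1%) were lower in deficient cells. The median log2 fold change of all genes tested was -0.01, with quartiles at -0.35 and 0.30. A change of more than 2-fold was seen in 696 of the genes called higher and 887 of those called lower. The deficient and add-back values did not overlap in 4653 of the 4657 called genes, but they also did not overlap, with deficient higher in 4965 and lower in 5210, among all 15424 genes tested. The even split depended on the scaling. With library totals in place of TMM factors, 1454 genes were called higher and 3672 lower, and the median of all genes moved to -0.16. The count also depended on the libraries used. Without add-back replicate 1 the count of calls was 2303, without add-back replicate 2 it was 2246, and without deficient replicate 1 or 2 it was 6272 or 5701. These fits assume that the lone library of a group varies like the other group.

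**Figure D1:**
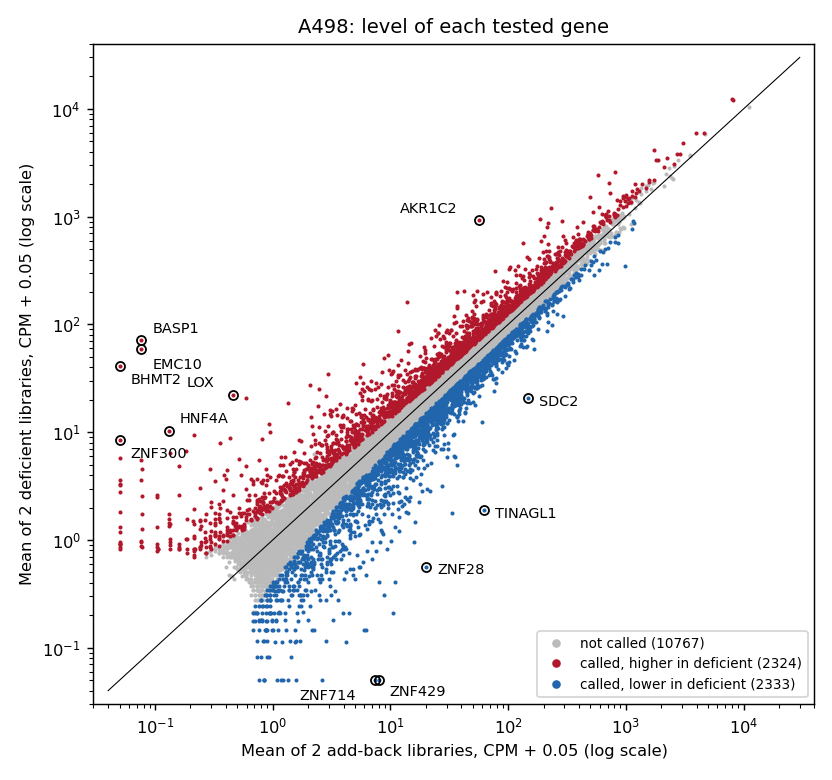
Mean level of every tested gene in the add-back (x axis) and deficient libraries (y axis), 2 libraries each, in CPM plus 0.05 on log scales, with the line of equal levels. Red points are the 2324 genes called higher and blue points the 2333 called lower in deficient cells, and circles mark genes named in the text, among them BASP1 and BHMT2 at the left edge and ZNF429 and ZNF714 at the lower edge.

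Some genes were nearly silent in 1 group and well expressed in the other. With at most 3 counts summed over 1 group and at least 100 over the other, 15 genes were on in deficient cells and 6 were off. BASP1, a membrane-bound brain protein also known as a transcriptional co-repressor (chr5:17065598-17276843, plus strand, GRCh38), had 1193 and 1017 counts in the deficient libraries and 0 and 1 in the add-back libraries. The ratio was 2602, with a 95% counting interval of 466.5 to 102800. EMC10, a subunit of the complex that inserts proteins into the endoplasmic reticulum membrane (chr19:50476400-50490871), had 1040 and 783 counts against 0 and 1, a ratio of 2146 (interval 384.8 to 84830). BHMT2, which methylates homocysteine (chr5:79069767-79090069), had 675 and 589 counts against 0 and 0. It was at least 496-fold higher, taken against a floor of 3 counts over the add-back group. Its neighbours moved the same way: DMGDH, of choline breakdown, rose from 0.448 and 0.322 CPM in add-back to 9.03 and 8.38 CPM in deficient libraries, and BHMT, named after its values were seen, rose from 0.280 and 0.322 to 2.56 and 1.62 CPM.

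HNF4A, a transcription factor of the liver and proximal tubule (chr20:44355699-44432845), had 155 and 164 counts in deficient cells against 1 and 2 in add-back cells, a ratio of 125 (interval 42.46 to 610.3). Both deficient libraries carried it alike, whereas the liver transcripts were mainly in deficient replicate 1. A link between HNF4A and those transcripts was not tested. The zinc finger gene ZNF300 had 124 and 138 counts against 0 and 0 and was at least 103-fold higher. The open reading frame C6orf132 had 100 and 77 counts against 0 and 0. KCNIP1, a potassium channel partner, and STEAP2, a metalloreductase, had 98 and 98 and 83 and 87 counts in deficient libraries and at most 3 in any add-back library. Of the 15 genes on in deficient cells, APOB and A2M, named after their values were seen, came from deficient replicate 1 alone, with 111 and 101 counts there against 0 and 1 in deficient replicate 2.

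Among the 6 genes off in deficient cells, 5 lie on chromosome 19. ZNF429 (chr19:21496682-21556270) had 0 and 0 counts in the deficient libraries against 134 and 156 in the add-back libraries, at least 82.1-fold lower. ZNF714 (chr19:21082159-21125270) had 0 and 0 against 131 and 136, at least 75.6-fold lower. ZNF888 had 3 and 0 against 104 and 119, and ZNF808 had 1 and 1 against 52 and 49. NOVA2, a neuronal splicing regulator, had 2 and 0 against 65 and 87, and HPCAL4, a calcium sensor on chromosome 1, had 2 and 1 against 104 and 113.

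The bases just before a RefSeq start are shown for 2 genes of each kind, to set side by side the promoters of genes that were on and off. They are the 120 bases before the RefSeq start (GRCh38.p14, all on the plus strand, 5′ to 3′), with each CG dinucleotide in capitals. The positions are chr5:79069647-79069766 for BHMT2, chr19:50476387-50476506 for EMC10, chr19:21505482-21505601 for ZNF429 and chr19:21082083-21082202 for ZNF714. The counted spans of EMC10, ZNF429 and ZNF714 begin before these RefSeq starts, that of ZNF429 at 21496682, upstream of its whole window. Other starts of these genes are not shown.
BHMT2: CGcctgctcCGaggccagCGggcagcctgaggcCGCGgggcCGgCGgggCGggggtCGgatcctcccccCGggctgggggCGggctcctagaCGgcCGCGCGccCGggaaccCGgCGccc
EMC10: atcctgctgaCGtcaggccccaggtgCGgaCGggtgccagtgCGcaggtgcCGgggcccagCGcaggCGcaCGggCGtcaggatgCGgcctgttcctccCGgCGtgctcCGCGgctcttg
ZNF429: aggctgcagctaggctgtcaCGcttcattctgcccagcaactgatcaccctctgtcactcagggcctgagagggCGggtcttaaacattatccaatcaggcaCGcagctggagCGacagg
ZNF714: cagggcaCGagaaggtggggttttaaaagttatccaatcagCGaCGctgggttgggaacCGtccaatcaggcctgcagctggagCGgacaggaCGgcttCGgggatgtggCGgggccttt
Over the 250 bases before the start, BHMT2 held 34 CG dinucleotides and EMC10 held 25, more than 93.4% and 78.7% of all promoters in the table. ZNF714 held 8 and ZNF429 held 5, where the median of all promoters was 11. Genes of each kind lay on both sides of that median, since the silenced NOVA2 held 27 and the activated HNF4A held 8.

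Many genes that were expressed in both groups also rose. AKR1C2, an aldo-keto reductase, was at 941 and 921 CPM in deficient and 54.6 and 58.4 CPM in add-back libraries, a log2 fold change of 4.04 ± 0.13 (adjusted p = 6.85e-11). LOX, the lysyl oxidase that cross-links collagen, was at 19.8 and 24.8 CPM against 0.448 and 0.375 CPM (5.74 ± 0.27, adjusted p = 6.05e-09). CP, the copper-carrying ferroxidase ceruloplasmin, was at 140 and 182 CPM against 12.4 and 15.1 CPM (3.54 ± 0.17). FADS2, a fatty acid desaturase, was at 90.7 and 83.2 CPM against 11.3 and 11.6 CPM (2.92 ± 0.15). G0S2, an inhibitor of lipid droplet lipolysis, rose by 3.56 ± 0.19 on the log2 scale. ST6GAL1, a sialyltransferase, rose by 5.77 ± 0.36, LAMA4, a laminin chain, by 4.68 ± 0.35, and RAB42, a small GTPase, by 5.52 ± 0.43. In all of these the lower deficient library lay above the higher add-back library, which the naming rule required of the largest rises. The same held for 4965 of the 15424 genes tested.

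Genes outside the zinc finger family also fell. TINAGL1, a basement membrane protein, was at 2.18 and 1.49 CPM in deficient and 62.5 and 62.0 CPM in add-back libraries, a log2 fold change of -5.08 ± 0.20 (adjusted p = 5.53e-10). SDC2, a heparan sulphate proteoglycan, was at 20.8 and 20.3 CPM against 152 and 145 CPM (-2.85 ± 0.14). CADM4, an adhesion molecule, was at 3.71 and 2.53 CPM against 28 and 26.5 CPM (-3.12 ± 0.20). CX3CL1, the chemokine fractalkine, was at 5.57 and 6.04 CPM against 34.0 and 36.3 CPM (-2.60 ± 0.16). TGIF2, a repressor of TGF-beta signalling, fell by 3.58 on the log2 scale. No deficient value of these genes reached an add-back value, which the naming rule required of the largest falls. The same held for 5210 of the 15424 genes tested.

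**Figure D2:**
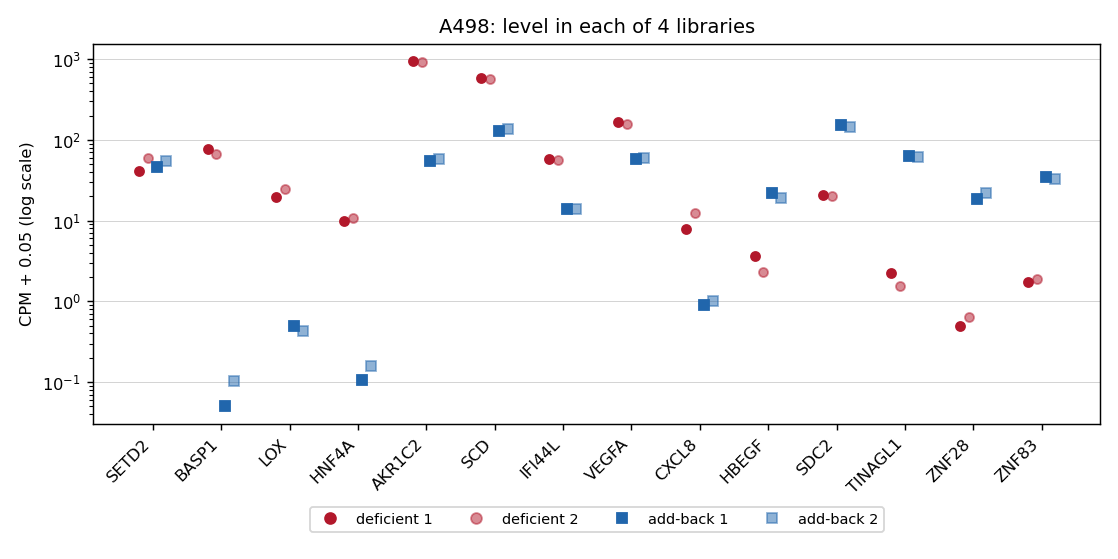
Level of 14 genes in each of the 4 libraries, in CPM plus 0.05 on a log scale, with deficient libraries as red circles and add-back libraries as blue squares. SETD2 overlaps between the groups. The other 13 genes, chosen from those called, are apart, BASP1 to CXCL8 higher and HBEGF to ZNF83 lower in deficient cells.

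Zinc finger genes of chromosome 19 were mostly lower in deficient cells. Most of these genes encode KRAB zinc finger proteins, which bind transposable elements and other sites and recruit repressive chromatin. The set, named ZNF with a number and protein-coding, was chosen after its values were seen and gets no test. Of 403 such genes tested, 145 were called lower and 23 higher, beside 15.1% of all genes in each direction. The median log2 fold change of the 403 was -0.30. On chromosome 19 the counts were 100 lower and 4 higher of 176, with a median of -0.79. On the other chromosomes they were 45 and 19 of 227, with a median of -0.06. Between 20 and 25 Mb of chromosome 19, 18 of 19 were called lower and none higher, with a median of -3.49, and ZNF254, at -0.25, was the member not called. From 50 Mb on, 43 of 67 were lower and 3 higher (median -0.78). The remaining 90 genes of the chromosome gave 39 and 1 (median -0.66).

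Single members fell far. ZNF28 was at 0.448 and 0.585 CPM in deficient and 18.2 and 22.2 CPM in add-back libraries (-5.27 ± 0.27, adjusted p = 1.12e-08). ZNF83 was at 1.67 and 1.82 CPM against 35 and 32.3 CPM (-4.26 ± 0.20), and ZNF43 at 5.32 and 4.55 CPM against 37.3 and 36 CPM (-2.89 ± 0.17). ZNF431, ZNF468, ZNF320, ZNF600, ZNF701 and ZNF682 had log2 fold changes of -5.96 to -3.86. ZSCAN18, a related gene with a SCAN domain, fell by 3.49. Not every neighbour was lower: ZNF845, also from the stretch past 50 Mb and named after its value was seen, was higher by 4.55. The other protein-coding genes of chromosome 19 had a smaller shift, with 201 lower and 64 higher of 733 and a median of -0.17. The zinc finger medians kept their direction under each scaling run, and without add-back replicate 1 or 2 the count of lower zinc finger genes was 91 or 98.

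**Figure D3:**
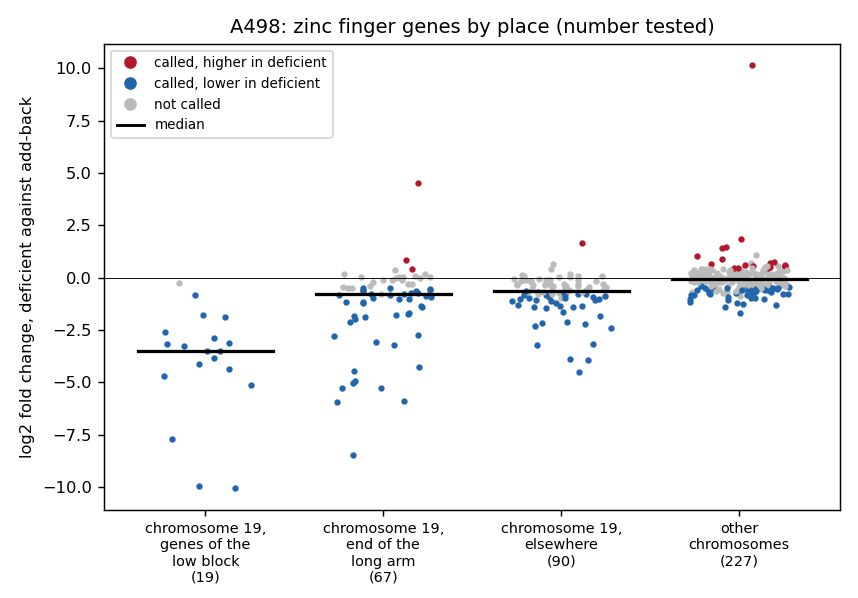
Log2 fold change of deficient against add-back (y axis) of 403 zinc finger genes, 1 point per gene, in 4 places along the x axis, with the median as a line. The 19 genes between 20 and 25 Mb of chromosome 19 have a median of -3.49, the 67 genes from 50 Mb on -0.78, the other 90 of that chromosome -0.66 and the 227 on other chromosomes -0.06.

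Targets of NRF2, the transcription factor that induces antioxidant and detoxifying enzymes when its inhibitor KEAP1 is disabled, were higher in deficient cells. Of 20 tested, 17 were called higher and none lower, beside 15.1% of all genes in each direction. The median log2 fold change was 0.85, beside -0.01 for all genes. Without add-back replicate 1 the count was 11, and without add-back replicate 2 it was 12. The aldo-keto reductases led the list. AKR1B10 was at 2419 and 2487 CPM in deficient and 566 and 600 CPM in add-back libraries (2.07 ± 0.11). AKR1C1 was at 1032 and 857 CPM against 190 and 182 CPM (2.35 ± 0.13), and AKR1C3 at 837 and 904 CPM against 210 and 224 CPM (2.01 ± 0.12). The AKR1C genes are close paralogs, so reads shared among them could be lost or misplaced in their counts. SLC7A11, the cystine importer, rose by 1.01 ± 0.12, and ABCC2, a conjugate exporter, by 1.05 ± 0.13. ALDH1A1, a retinal dehydrogenase, was at 4248 and 4017 CPM against 1784 and 1699 CPM (1.25 ± 0.10). The transcripts of the regulators did not pass the test: NFE2L2, which encodes NRF2, gave 0.26 (adjusted p = 0.127) and KEAP1 gave 0.15 (adjusted p = 0.409). Both were looked up after the list was seen. Of 24 ABC transporters and drug-metabolising enzymes, 7 were higher and 6 lower (median 0.09, and -0.07 with library totals).

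Interferon-stimulated genes, the antiviral genes switched on by interferon signalling, were mostly higher in deficient cells. Of 39 tested, 21 were called higher and 2 lower, beside 15.1% of all genes in each direction, with a median of 0.49. IFI44L was at 57.5 and 56.6 CPM in deficient and 14 and 14 CPM in add-back libraries (2.02 ± 0.14, adjusted p = 1.89e-07). OASL was at 34.7 and 40.0 CPM against 9.75 and 9.49 CPM (1.96 ± 0.16), OAS2 at 24.3 and 25.2 CPM against 6.11 and 7.40 CPM (1.87 ± 0.17), and IFIT3 at 61.5 and 65.6 CPM against 23.5 and 22.9 CPM (1.45 ± 0.14). The deficient values of these 4 genes lay above every add-back value, as they did in 4965 of the 15424 genes tested. The 2 members called lower were BST2, which tethers budding virus, at 148 and 101 CPM against 274 and 251 CPM, and IFITM2, at under 2 CPM in every library. IFNB1, the interferon beta gene, had too few counts to be tested.

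Sensors upstream of interferon were mixed, beside 30.2% called over all genes. Of 17 genes of cytosolic nucleic acid sensing, 6 were higher and 3 lower, with a median of 0.21. TRIM25, a ubiquitin ligase of the RIG-I pathway, rose by 0.79 ± 0.14, and IFI16, a DNA sensor, by 0.66 ± 0.13. MAVS, the mitochondrial adaptor of RNA sensors, fell by 0.61, and IRF5 fell by 1.18. CGAS, which makes the messenger cGAMP from DNA, was at 23.5 and 26.1 CPM against 22.8 and 20.1 CPM (0.21 ± 0.15, adjusted p = 0.316). STING1, its receptor, was at 43.2 and 37.2 CPM against 32.2 and 33.0 CPM (0.30 ± 0.14, adjusted p = 0.120), and without deficient replicate 2 it was called higher at 0.41. Of 19 genes of MHC class I presentation, 4 were higher and none lower (median 0.24). They were the immunoproteasome subunits PSMB8 (0.79) and PSMB10 (0.81) and the peptide trimming enzymes ERAP1 (0.60) and ERAP2 (0.44), of which ERAP1 and ERAP2 were not called with add-back replicate 1 or 2 left out. Without deficient replicate 2, 14 were called higher.

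The interferon-stimulated response element is the promoter site through which interferon signalling induces genes. Its core was searched on both strands as TTTC, 2 bases of any kind and TTTC again, in the 250 bases before the RefSeq start. It was found in 19 of the 31 listed and tested genes with a promoter in the table (61.3%), in 11 of the 16 of these called higher (68.8%), and in 2.34% of the promoters of all tested genes. Windows of 120 bases are shown for 4 called higher and for BST2, which was lower, with each match in capitals (GRCh38.p14, 5′ to 3′ along the gene). The windows are chr1:78620274-78620393 (IFI44L), chr10:89327803-89327922 (IFIT3), chr1:78649669-78649788 (IFI44), chr4:88456964-88457083 (HERC5) and chr19:17405693-17405812 (BST2, minus strand, the others plus). IFI44, HERC5 and BST2 were picked after their values were seen.
IFI44L: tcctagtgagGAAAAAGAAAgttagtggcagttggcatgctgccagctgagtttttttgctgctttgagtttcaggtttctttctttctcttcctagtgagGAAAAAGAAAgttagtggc
IFIT3: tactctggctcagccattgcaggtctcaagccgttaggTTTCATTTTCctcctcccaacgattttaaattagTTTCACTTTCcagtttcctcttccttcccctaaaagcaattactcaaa
IFI44: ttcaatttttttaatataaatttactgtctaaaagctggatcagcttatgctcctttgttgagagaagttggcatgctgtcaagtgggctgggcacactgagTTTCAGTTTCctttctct
HERC5: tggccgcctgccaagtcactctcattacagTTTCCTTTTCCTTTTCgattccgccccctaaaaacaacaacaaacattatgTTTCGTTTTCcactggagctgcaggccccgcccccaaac
BST2: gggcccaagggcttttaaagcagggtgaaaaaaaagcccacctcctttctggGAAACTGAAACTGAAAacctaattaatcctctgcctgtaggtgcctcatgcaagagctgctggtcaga
The match is thus held by members that rose and by a member that fell, and it is a description of letters, not of binding.

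Genes of cholesterol and fatty acid synthesis, the targets of the SREBP transcription factors, were higher in deficient cells. Of 28 tested, 18 were called higher and none lower, beside 15.1% of all genes in each direction, with a median of 0.51. The count was 11 without add-back replicate 1 and 11 without add-back replicate 2. SCD, the stearoyl-CoA desaturase, was at 577 and 570 CPM in deficient and 128 and 138 CPM in add-back libraries (2.11 ± 0.12, adjusted p = 2.15e-08). INSIG1, the sterol-regulated brake on SREBP, was at 119 and 122 CPM against 35.8 and 33.4 CPM (1.8 ± 0.13). FASN, fatty acid synthase, was at 280 and 242 CPM against 125 and 145 CPM (0.95 ± 0.13). In each of these both deficient libraries lay above both add-back libraries, as in 4965 of the 15424 genes tested.

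Targets of the hypoxia-inducible factors, which are stabilised where VHL is lost, were split but mostly higher, beside 30.2% called over all genes. Of 27 tested, 14 were called higher and 3 lower, with a median of 0.43, and the count of higher genes was 9 without add-back replicate 1 and 9 without add-back replicate 2. STC2, a secreted glycoprotein, was at 65.5 and 68.1 CPM in deficient and 15.4 and 14.6 CPM in add-back libraries (2.16 ± 0.14). CA12, a carbonic anhydrase, was at 618 and 702 CPM against 193 and 207 CPM (1.73 ± 0.12), PLIN2, a lipid droplet coat protein, at 332 and 329 CPM against 101 and 102 CPM (1.70 ± 0.12), and VEGFA, the angiogenic factor, at 168 and 156 CPM against 58.3 and 59.3 CPM (1.46 ± 0.13). EGLN3, a prolyl hydroxylase that marks the factors for decay, rose by 1.38 ± 0.14. ANGPTL4, named because it went the other way, was at 0.768 and 0.650 CPM against 2.97 and 2.95 CPM.

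The factors themselves and VHL also differed. HIF1A was at 438 and 516 CPM in deficient and 211 and 207 CPM in add-back libraries (1.19 ± 0.12). EPAS1, which encodes HIF-2 alpha, was at 59.8 and 68.8 CPM against 39.8 and 48.7 CPM (0.54 ± 0.15, adjusted p = 0.0134), and VHL at 40.9 and 28.7 CPM against 56.9 and 49.7 CPM (-0.61 ± 0.17, adjusted p = 0.0129). The calls of EPAS1 and VHL were lost without add-back replicate 1, at 0.40 and -0.51. Of 23 glycolysis genes, 9 were higher and 1 lower (median 0.26), and the count of higher genes was 5 without add-back replicate 1. Over all genes 30.2% were called in either direction. HK2, a hexokinase, rose by 1.94 ± 0.17, GAPDH by 0.67 ± 0.10, PGAM1 by 0.63 ± 0.11 and LDHA by 0.53 ± 0.11.

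The core of the hypoxia response element, ACGTG on either strand, was found before the start of 12 of 22 listed and tested HIF targets with a promoter in the table (54.5%), in 5 of the 12 of these called higher (41.7%), and in 23.3% of the promoters of all tested genes. The promoter of LOX is shown because LOX had the largest rise of the list. It holds 4 matches in 250 bases, and the window at chr5:122078325-122078444 (minus strand) holds 3 of them, in capitals.
LOX: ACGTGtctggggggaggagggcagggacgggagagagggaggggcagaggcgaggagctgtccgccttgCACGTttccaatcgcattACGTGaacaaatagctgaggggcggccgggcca
For NRF2 the core TGACNNNGC was found in 4 of 15 listed and tested targets in the table (26.7%), against 12.3% of the promoters of all tested genes. GCLM, which encodes a subunit of the enzyme that starts glutathione synthesis, is shown as one of these and was named after its value (0.84) was seen. The match is in capitals, at chr1:93909431-93909550, minus strand.
GCLM: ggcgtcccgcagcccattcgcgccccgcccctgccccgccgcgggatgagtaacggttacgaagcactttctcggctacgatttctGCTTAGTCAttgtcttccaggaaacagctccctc

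**Figure D4:**
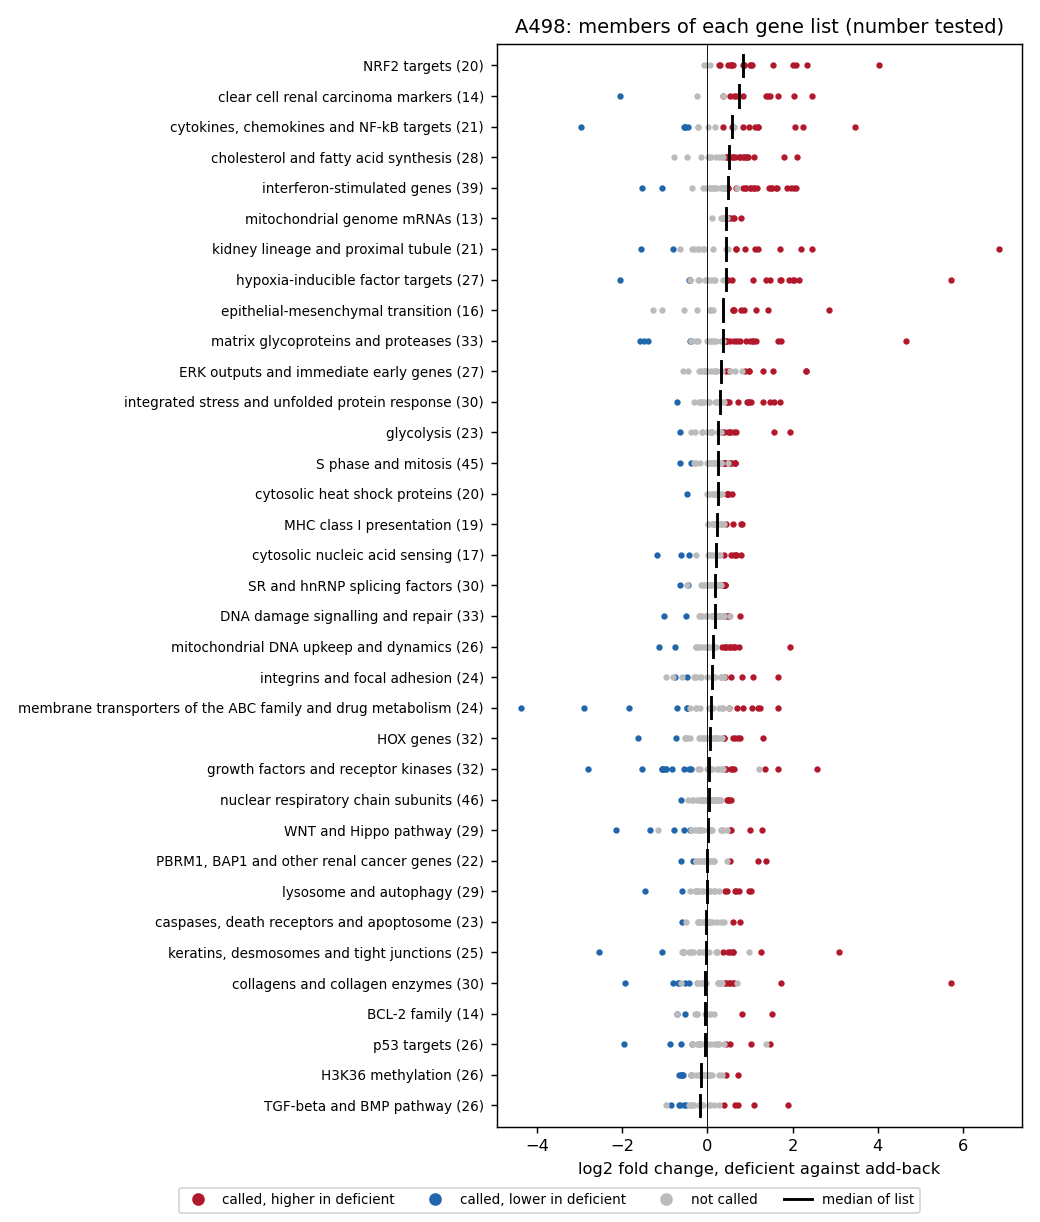
Log2 fold change of deficient against add-back (x axis) for the tested members of each gene list with at least 13 of them (y axis), with the median as a black line and called genes in red (higher) and blue (lower). The lists run from TGF-beta and BMP genes, with a median of -0.18, at the bottom to NRF2 targets, with a median of 0.85, at the top.

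Stress and amino acid genes were higher in part, beside 30.2% of all genes called in either direction. Of 30 genes of the integrated stress and unfolded protein response, 12 were higher and 1 lower (median 0.29). PSAT1 and PHGDH, of serine synthesis, were at 324 and 351 CPM against 106 and 103 CPM (1.70 ± 0.12) and at 318 and 258 CPM against 123 and 109 CPM (1.31 ± 0.14). TRIB3, a pseudokinase induced by ATF4, was at 109 and 99.0 CPM against 34.1 and 35.9 CPM (1.57 ± 0.14). Of 20 heat shock genes 5 were higher and 1 lower (median 0.25), among them HSPD1, whose protein is mitochondrial (0.49), and HSPB8 (-0.48). Of 29 lysosome and autophagy genes 7 were higher and 2 lower, with a median of -0.01. CTSL and CTSD, cathepsins, rose by 1.02 ± 0.13 and 0.98 ± 0.15, and SQSTM1, an autophagy receptor, by 0.68 ± 0.11.

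Markers of the tubule and of renal carcinoma were present in both groups. PAX8, the lineage factor of the kidney tubule, was at 192 and 213 CPM in deficient and 122 and 133 CPM in add-back libraries, and VIM, the filament of clear cell carcinoma, at 3507 and 3493 CPM against 2274 and 2233 CPM. Of 14 tested markers of clear cell renal carcinoma, 11 were higher and 1 lower in deficient cells (median 0.75), beside 30.2% called over all genes. CA9, a defining marker, was under 1 CPM in every library, and NDUFA4L2, another, was under 0.3 CPM and not tested. IGFBP3 was at 2568 and 2627 CPM against 839 and 794 CPM (1.67 ± 0.11), and CDH6, a kidney cadherin, at 151 and 177 CPM against 60.0 and 61.5 CPM (1.43 ± 0.13).

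Of 36 kidney lineage and proximal tubule genes, 21 were tested, 9 were higher and 2 lower, beside 30.2% called over all genes. The median was 0.44 and turned to -0.12 without deficient replicate 1. The higher members included the transcription factor HNF4A, brush border enzymes and VCAM1. ANPEP, an aminopeptidase of the brush border, was at 184 and 216 CPM in deficient and 35.7 and 37.7 CPM in add-back libraries (2.45 ± 0.14), and DPP4, a dipeptidase of the same membrane, at 150 and 189 CPM against 51.7 and 52.0 CPM (1.71 ± 0.14). VCAM1, a marker of injured tubule, rose by 1.20 ± 0.14. The transporters SLC22A6 and SLC22A8, which mark the mature proximal tubule, had 0 counts in all 4 libraries.

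Markers of other cell types were low. Of 20 leukocyte markers 17 were under 1 CPM in every library, PTPRC was at 0 to 0.336 CPM, and their sum ran from 2.99 to 4.10 CPM in deficient and 4.29 to 4.93 CPM in add-back libraries. Of 13 endothelial markers 11 were under 1 CPM in every library. Their sum was 69 and 51.5 CPM in deficient and 115 and 117 CPM in add-back libraries, nearly all of it from EGFL7, which fell by 0.99. The 15 fibroblast and pericyte markers summed to 205 and 227 CPM in deficient and 174 and 163 CPM in add-back libraries, and POSTN alone was at 103 and 139 CPM against 86.1 and 80.0 CPM. Of 17 markers of the distal nephron and collecting duct, 15 were under 1 CPM everywhere. In such bulk libraries, a change in the share of cells of a type and a change in RNA per cell cannot be told apart, and the part of these markers in the results was not tested.

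Genes of the BCL-2 family set the threshold for mitochondrial apoptosis. BCL2L1, which encodes BCL-XL, was at 209 and 191 CPM in deficient and 225 and 253 CPM in add-back libraries (-0.26 ± 0.12, adjusted p = 0.130). The groups did not overlap, but the same held for 4965 genes with deficient higher and 5210 with deficient lower, of 15424 tested. Without deficient replicate 1 the log2 fold change of BCL2L1 was -0.32. MCL1 was at 171 and 171 CPM against 155 and 150 CPM (0.16 ± 0.12, adjusted p = 0.320), BCL2 at 7.94 and 9.94 CPM against 9.64 and 8.79 CPM, and BAK1 at 46.4 and 45 CPM against 46.3 and 48.8 CPM. Of 14 members of the BCL-2 family tested, 2 were higher and 2 lower (median -0.05), beside 30.2% called over all genes. The higher ones encode BH3-only activators and sensitisers of death. PMAIP1 (NOXA) was at 32.9 and 32.7 CPM against 12.3 and 10.7 CPM (1.51 ± 0.15, adjusted p = 5.41e-06), and BCL2L11 (BIM) at 32.0 and 39.6 CPM against 18.7 and 22 CPM (0.82 ± 0.16, adjusted p = 0.00146). BAD, also BH3-only, fell by 0.71. BAX, which permeabilises mitochondria, was at 147 and 87.1 CPM against 168 and 167 CPM (-0.52 ± 0.18, adjusted p = 0.0445), and its call was lost without deficient replicate 2 (-0.19), add-back replicate 1 or add-back replicate 2.

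Other death and p53 genes were mixed, beside 30.2% called over all genes. Of 23 caspases, death receptors and apoptosome genes, 2 were higher and 1 lower (median -0.03): CASP1 (0.77), TNFRSF1A (0.61) and TNFRSF10B (-0.59). CASP1 was not called without deficient replicate 1 (0.47), add-back replicate 1 or add-back replicate 2. Of 26 p53 targets, 4 were higher and 4 lower (median -0.05). GDF15, a stress cytokine, was at 158 and 137 CPM against 51.5 and 54.5 CPM (1.47 ± 0.13), PLK2 rose by 1.03 ± 0.11, and TIGAR, a fructose bisphosphatase, fell by 1.97.

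Transcripts of the mitochondrial genome were higher, and this rested on deficient replicate 2 in part. Of the 13 mRNAs, 7 were called higher and none lower (median 0.44), beside 30.2% called over all genes. MT-CO1, of cytochrome oxidase, was at 10170 and 14460 CPM in deficient and 8023 and 7864 CPM in add-back libraries (0.63 ± 0.13), and MT-ND4L, of complex I, at 495 and 874 CPM against 370 and 419 CPM (0.79 ± 0.19). Without deficient replicate 2, 5 were called and the median was 0.16. Without deficient replicate 1, 12 were called and the median was 0.65. The 13 summed to 34140 and 46660 CPM in deficient and 28280 and 30590 CPM in add-back libraries. Subunits of the respiratory chain encoded in the nucleus did not follow: of 46, 4 were higher and 1 lower (median 0.04, and -0.11 with library totals), and none was called with add-back replicate 1 or add-back replicate 2 left out. Of 26 genes of mitochondrial DNA upkeep and dynamics, 11 were higher and 2 lower (median 0.13, and -0.03 with library totals). The counts of both nuclear sets stand beside the 30.2% called over all genes. VDAC1, an outer membrane channel, rose by 0.64 ± 0.11, and FIS1, of fission, fell by 0.76.

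Extracellular matrix genes moved in both directions, beside 30.2% called over all genes. Of 33 matrix glycoproteins and proteases, 15 were higher and 5 lower (median 0.36). FN1, fibronectin, was at 337 and 481 CPM in deficient and 180 and 188 CPM in add-back libraries (1.15 ± 0.15), MMP7, a metalloproteinase, at 81.7 and 85.9 CPM against 28 and 22.3 CPM (1.74 ± 0.15), and SERPINE2 at 272 and 288 CPM against 133 and 133 CPM. Of 30 collagens and collagen enzymes 8 were higher and 6 lower (median -0.05), or 3 and 2 without add-back replicate 1 or 2, with LOX and LOXL2 (0.50) among the first and COL6A1 (-0.53) and COL4A5 (-0.70) among the second. Of 24 integrins and focal adhesion genes 5 were higher and 2 lower, among them ITGB3 (1.65 ± 0.14), ITGA3 (1.08 ± 0.11) and ITGB6 (-0.77). Of 16 genes of the epithelial-mesenchymal transition 8 were higher and none lower (median 0.37). CDH11, a mesenchymal cadherin, was at 14.2 and 20.7 CPM against 2.30 and 2.47 CPM (2.87 ± 0.23). Of 25 keratins, desmosome and tight junction genes 7 were higher and 3 lower (median -0.04), with CLDN2 up by 3.10 and CGN, cingulin, down by 2.56.

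Secreted signals and receptors moved in both directions, beside 30.2% called over all genes. Of 21 tested cytokines, chemokines and NF-kB targets, 10 were higher and 5 lower (median 0.58), and 5 and 1 without add-back replicate 2. CXCL8, a neutrophil chemokine, was at 7.75 and 12.3 CPM in deficient and 0.841 and 0.965 CPM in add-back libraries (3.46 ± 0.30), and CSF1, the macrophage growth factor, at 654 and 677 CPM against 291 and 298 CPM (1.18 ± 0.11). IL11 was at 1.35 and 0.845 CPM against 8.69 and 8.68 CPM (-2.98 ± 0.27). Of 32 growth factors and receptor kinases, 8 were higher and 12 lower (median 0.04, and -0.11 with library totals). FGFR4 was at 215 and 189 CPM against 75.1 and 83.5 CPM (1.35 ± 0.13). Ligands of the EGF receptor split: AREG rose by 2.57 ± 0.34 and HBEGF fell by 2.81. Of 26 TGF-beta and BMP genes 5 were higher and 6 lower (median -0.18), with INHBB up by 1.89 ± 0.13 and BMPR2 down by 0.68. Of 29 WNT and Hippo genes 4 were higher and 5 lower, with LGR4 (0.99) and NKD1 (-2.16) as examples. Of 27 ERK outputs and immediate early genes, 9 were higher and none lower (median 0.32). MYC was at 121 and 129 CPM against 48.4 and 53.3 CPM (1.30 ± 0.13), and DUSP5, a phosphatase of ERK, at 49.1 and 53.5 CPM against 16 and 19.3 CPM (1.54 ± 0.15). The ERK count was 4 without add-back replicate 1.

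Chromatin and cell cycle genes were called in both directions, beside 30.2% called over all genes. Of 26 writers, erasers and readers of H3K36 methylation, 2 were higher and 6 lower (median -0.15). DNMT3B, a DNA methyltransferase that reads the trimethyl mark, was at 61.2 and 69.4 CPM in deficient and 40.6 and 38.6 CPM in add-back libraries (0.72 ± 0.14, adjusted p = 0.00135). Its relative DNMT3A was at 16.7 and 16.2 CPM against 25.2 and 25.7 CPM (-0.62 ± 0.15, adjusted p = 0.00552). KDM4B, which removes the mark, fell by 0.59, and HDGFL2, a reader of it, by 0.66. Only DNMT3B and PHF19 were called higher. With add-back replicate 1 left out the list gave 1 higher and 1 lower, and the calls of DNMT3A and HDGFL2 were lost. With add-back replicate 2 left out it also gave 1 and 1, and with deficient replicate 2 left out 2 and 11. Of 22 genes of a renal cancer list, PBRM1 and BAP1 among them, 3 were higher and 2 lower, with a median of 0.00. The largest rise of this list was that of EGLN3 (1.38), also given above with the HIF targets. Of 45 genes of S phase and mitosis 11 were higher and 2 lower (median 0.25), with CCNB1 up by 0.66 ± 0.12, CDC20 by 0.65 ± 0.12, and CCNE2 down by 0.63. The count of higher genes was 2 without add-back replicate 1 and 24 without deficient replicate 1. Of 33 DNA damage genes 4 were higher and 2 lower (median 0.18, and 16 higher without deficient replicate 1), with LIG4, of end joining, down by 1.02 and FANCD2 down by 0.50. Of 30 SR and hnRNP splicing factors 7 were higher and 2 lower (median 0.18), and none was called higher with add-back replicate 1 or add-back replicate 2 left out. Of 30 replication-dependent histone genes 10 were tested and H2BC12 was called, lower by 0.87. Of 32 HOX genes 7 were higher and 2 lower, with HOXB8 at 1.29 and HOXA13 at -1.64.

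Long non-coding genes were called in both directions. Of 1049 tested, 115 were called higher and 122 lower, smaller shares than the 15.1% called in each direction over all genes. LINC01322 was at 25.7 and 28.6 CPM in deficient and 2.24 and 1.77 CPM in add-back libraries (3.76 ± 0.20), LINC00707 at 4.61 and 4.42 CPM against 0.168 and 0.322 CPM (4.16 ± 0.39), and LINC01320 at 8.33 and 8.32 CPM against 1.57 and 1.82 CPM (2.29 ± 0.23). LINC00958 had 58 and 53 counts against 0 and 0. Antisense genes were called in both directions, with UBAC2-AS1 at 0.640 and 0.390 CPM against 5.83 and 4.82 CPM (-3.35 ± 0.34), and TMEM51-AS1 and SPART-AS1 higher by 2.20 and 2.21. Counting used strand, so these reads were separated from those of the sense gene.

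Genes of some chromosomes were shifted together. The median log2 fold change was -0.30 on chromosome 20, -0.25 on chromosome 19 and -0.23 on chromosome 7, beside -0.01 over all genes. All 4 windows of 20 Mb on chromosome 20 and all 8 on chromosome 7 had a median below 0, as had all 3 on chromosome 19. The windows of chromosomes 16 and 22 were also below 0, the lowest at -0.07. On chromosome 20, 34.2% of 407 genes were called lower and 8.6% higher. On chromosome 7 the shares were 28.3% and 9.28% of 830, beside 15.1% in each direction over all genes. Chromosome 3 was split, with medians of -0.35 and -0.31 in its first 2 windows of 20 Mb and 0.20 between 160 and 180 Mb. The highest medians of the nuclear chromosomes were 0.21 on chromosome 18 and 0.15 on chromosome 13. The medians of chromosomes 7, 19 and 20 stayed below 0 under each scaling run and with each library left out, while that of chromosome 13 was -0.01 with library totals. Chromosome 19 also had the highest median GC content of transcripts (59.0%). The genes of highest GC content, from 58.14% up, had a median of -0.15, and with an offset for GC, added after the data were seen, chromosomes 19, 7 and 20 were at -0.16, -0.22 and -0.28. In 786-O, KO against WT in DMSO gave medians of 0.02 on chromosome 7, 0.01 on 19 and 0.02 on 20, while its own lowest medians were -0.35 on chromosome 10, -0.30 on chromosome 1 and -0.17 on chromosome 8.

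**Figure D5:**
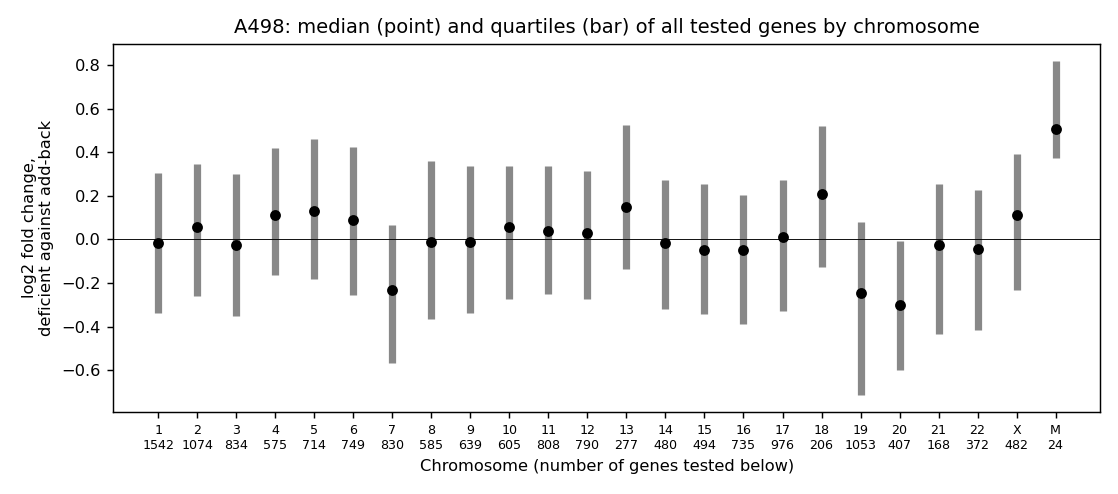
Median (point) and quartiles (bar) of the log2 fold change of deficient against add-back (y axis) for all tested genes of each chromosome (x axis, number tested below the name, M for mitochondrial). Chromosomes 7, 19 and 20 have medians of -0.23, -0.25 and -0.30, and chromosome 18 has 0.21.

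The same contrast was then compared between lines, as the difference of deficient against add-back in A498 and KO against WT in DMSO-treated 786-O. All 16 libraries, those given A1331852 included, were fitted together with the 786-O batches as a term. Of 17868 genes tested, 2362 (13.2%) had a contrast that differed between the lines, 1269 higher and 1093 lower in A498. Without the 6 libraries given A1331852 the count was 5437. A498 was sequenced in a batch of its own, so line and batch cannot be told apart in levels. BASP1 shows such a difference: it averaged 71.7 CPM in deficient and 0.0267 CPM in add-back A498, and 255 CPM in KO and 263 CPM in WT 786-O. EMC10 averaged 59.1 and 0.0267 CPM in A498 and 38 and 101 CPM in 786-O, so that KO was lower there. ZNF429 and ZNF714 averaged 0 CPM in deficient and 7.86 and 7.25 CPM in add-back A498, while in 786-O they averaged 14.3 and 35.3 CPM in KO and 6.86 and 17.3 CPM in WT cells. The direction of both genes was thus opposite between the lines, with differences of -11.42 ± 0.63 and -11.28 ± 0.72 on the log2 scale (adjusted p = 4.28e-08 and 1.70e-07). Fitted values of genes at 0 in a group depend on the small count that the fit adds.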

How the data were processed

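The authors deposited a table of raw counts for each library, made by assigning read pairs to gene names with featureCounts 1.5.0-p3 over exons of GENCODE release 41, on uniquely placed alignments with the reverse-strand setting, per the file headers. STAR, MultiQC 1.7, DESeq2 and the GRCh38 build are named in the submitters' processing notes. Libraries were made from 350 ng of total RNA and read as pairs of 150 bases, per the labels' protocols. Each table held 60606 gene names, and biotypes came from a match of 40015 of them to GENCODE 29 or RefSeq.

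Labels supplied every group, batch and replicate number. The 4 A498 libraries were fitted alone (edgeR 4.0.16 under R 4.3.3). Genes were kept by filterByExpr on the groups with min.count at 10, sizes were scaled by TMM, and quasi-likelihood p-values were adjusted by the Benjamini-Hochberg method and called below 0.05. The SE is the log2 fold change divided by the square root of F. The difference between lines was fitted on all 16 libraries. The alternatives used limma 3.58.1 and DESeq2 1.42.0. Counts were simulated for 15424 genes of the A498 comparison, with a dispersion of 0.011 for every gene in both groups. Changes were put into 50 genes per fold, none of them of low count. Of genes changed 1.5-fold 46% were recovered, of those changed 2-fold 90% and of those changed 4-fold 100%, with 6 false calls. In the real libraries the spread differed between groups and far more genes were called, so these figures hold for the simulated counts only. Counting intervals (95%) and floors (3 counts over a group) cover counting error only.

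Earlier results of these data were known when the comparison, the 40 gene lists (1102 entries) and the naming rule were chosen, so lists are described by counts and medians and not tested. The rule took (a) VHL, EPAS1, SETD2, the sensing genes CGAS, STING1 and IFNB1, and the apoptosis genes BAX, BAK1, BCL2, MCL1, BCL2L1 and BCL2L11, (b) the 15 largest rises and falls among called protein-coding genes of at least 5 CPM with no overlap, (c) up to 4 called members per list by adjusted p, (d) the 10 smallest adjusted p per direction, (e) up to 8 genes per direction that were on or off, (f) up to 8 long non-coding or antisense genes per direction of at least 2 CPM, and (g) 8 genes per direction for the difference between lines. The text prints a choice of them, made with values seen. Promoter sequences are from RefSeq, GRCh38.p14. Some genes covered by the rule are not reported here.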

Additional observations from a re-analysis of the deposited data

Results flagged for a closer look

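For 16 genes the contrast of A498 differed from that of 786-O in DMSO by a test of the difference itself (edgeR, 16 libraries). They are the 8 largest in each direction among called protein-coding genes of at least 5 CPM in some group. The values are log2 differences of the contrast between lines, not of the level. The contrast was higher in A498 for BHMT2 (12.23), EMC10 (12.22), NTM (11.94), IGFBP1 (11.33), BASP1 (11.08), ZNF300 (10.47), MATN3 (9.17) and RAB42 (9.15). BHMT2 was silent in add-back A498 and was at 112 CPM in KO and 77.3 CPM in WT 786-O. NTM and MATN3 averaged under 1 CPM in both A498 groups. The log2 change of MATN3 was 6.56 in A498 and -2.61 in 786-O, and that of NTM was 5.08 (adjusted p = 0.421) and -6.86. The difference between lines of IGFBP1 rested on deficient replicate 1, the library with liver transcripts, and was 2.61 without it (adjusted p = 1). RAB42 rose in deficient A498 and was lower in KO than WT 786-O (3.22 against 39.2 CPM).

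The contrast was lower in A498 for POU3F3 (-6.57), COL22A1 (-6.92), SGPP2 (-7.10), ZNF813 (-7.81), RTN1 (-8.15), NOVA1 (-8.40), ZNF714 (-11.28) and ZNF429 (-11.42). POU3F3, a kidney and neural transcription factor, averaged 53.6 and 32.1 CPM in deficient and add-back A498, and 7.24 and 0.0380 CPM in KO and WT 786-O. NOVA1, a splicing regulator, averaged 5.80 and 6.91 CPM in A498 and 1.67 and 0 CPM in 786-O. RTN1 averaged 2.37 and 4.75 CPM in A498 and 13.3 and 0.0818 CPM in 786-O, and ZNF813 averaged 0 and 2.56 CPM in A498 and 4.12 and 7.84 CPM in 786-O. The calls of NTM, IGFBP1 and SGPP2 were lost with each A498 add-back library left out, and those of NTM and SGPP2 also with each deficient library left out.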

How the results depend on the processing

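The A498 count of 4657 calls (2324 higher and 2333 lower) was within 1.5 times of itself under other size factors, filters and tools, from 3399 without a filter to 5126 with library totals, although totals gave 1454 higher and 3672 lower. A test against a log2 change of 1 gave 514 calls (242 and 272), and the fit of all 16 libraries gave 2361 (1214 and 1147). With 1 library left out, the calls ran from 2246 to 6272, the higher ones from 1080 to 3132 and the lower ones from 1166 to 3140. Calls shared with the 4657 numbered 4355 under upper quartile factors and 3576 with DESeq2, all in the same direction. SETD2, never called, was -0.043 under upper quartile factors, -0.154 with library totals, -0.0076 with a mean of at least 50 counts, -0.017 with limma voom, -0.013 with the replicate block, -0.033 with TMM factors from other chromosomes than 3, 7, 19 and 20 and -0.062 with the GC offset, and ran from -0.28 to 0.25 with 1 library left out. BAK1 was 0.031 with the GC offset, and BCL2 was 0.115 without deficient replicate 1, -0.207 without deficient replicate 2 and 0.026 without add-back replicate 1. The cause was not tested.

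The difference of the SETD2 contrast between A498 and 786-O in DMSO was called in 2362 genes (1269 higher and 1093 lower). It was called in 5437 (3029 and 2408) with the 10 untreated or DMSO libraries, in 1151 to 1782 with 1 library left out (565 to 876 higher and 586 to 915 lower), and lowest without an A498 add-back library. Same-numbered A498 libraries shared only a number, with a residual correlation of 0.15 over 2 pairs. With that number as a replicate block, 5818 genes were called in A498 (2864 and 2954), including all 4657, and 3742 in the difference between lines (2069 and 1673). The GC offset and the TMM factors without those chromosomes were chosen after seeing the data. Precision is limited by 2 libraries per group and, for genes of few counts, by totals of 16358468 to 17811303 counts per library.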
